A study of Mus musculus with 6 samples.

Results

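Lipid-associated macrophages (LAMs) of mouse visceral fat were picked out of single-cell RNA counts of sorted myeloid cells, and their genes and numbers were described by sample and diet. A cell was taken as a LAM when its unique molecular identifiers (UMIs, each standing for 1 captured RNA molecule) of Gpnmb, Mmp12, Rnf128, Cpe and Atp6v0d2 summed to at least 8. It also had to hold under 4 UMIs of Cd209f, Cd209g, Cd209d and Cd163, genes of resident macrophages, and under 6 UMIs of the collagen genes Col3a1 and Col1a2. Of 2114 cells kept over all samples, 486 met these conditions, 446 in HFD samples and 40 in control samples. The members were selected on these counts, so their levels of the same genes are descriptions and carry no test.

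The study addressed which myeloid populations visceral fat holds in long-standing obesity. Fat was digested with collagenase, and cells were sorted for CD45, carried by all leukocytes, and for the myeloid integrin CD11b, then sequenced. The 3 samples HFD 1, HFD 2 and HFD 3 have the diet label HFD, and the 3 samples Control 1, Control 2 and Control 3 have the diet label control. Strain, sex, age, diet composition and diet length are not given in the sources used here, nor is it stated that samples came from separate animals, so the spread behind the p-values may be a technical one.

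Lipid-associated macrophages are known from fat tissue, where they gather around dying adipocytes and take up their lipid. Their surface receptor Trem2 binds lipids and signals through the adaptor Tyrobp, and their lysosomes, acidified by the V-ATPase proton pump, break down the material they ingest. Gpnmb is a membrane glycoprotein of late endosomes and lysosomes, Mmp12 is the macrophage elastase, and Atp6v0d2 is a V-ATPase subunit best known from osteoclasts. Rnf128 is a ubiquitin ligase, and Cpe, carboxypeptidase E, trims peptide hormones in endocrine cells.

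The cells carried macrophage markers. Every one of the 11 macrophage markers was detected, and together they summed to 28780 to 29170 UMIs per 1000000 (CPM) in HFD LAMs and 24630 CPM in LAMs of Control 3, against 2248 to 2619 CPM in HFD fibroblasts, the cells over the collagen limit. Other C1q macrophages, under all limits of the selection and with at least 20 UMIs of C1qa, C1qb and C1qc, held more. Their sum was 31090 to 36460 CPM in HFD samples and 28030 CPM in Control 3. Trem2, which the selection did not use, had a UMI in 99.6% of the 446 HFD LAMs and 92.5% of the 40 control LAMs. With every cell thinned to 3000 UMIs, the shares were 93.4% of HFD LAMs, 79.5% of control LAMs and 22.9% of HFD fibroblasts. In other C1q macrophages they were 78.2% in HFD and 26.1% in control samples, so Trem2 was common in the nearest HFD cells too. Before thinning, median UMIs per cell were 15760 in HFD LAMs, 13070 in control LAMs and 7033 in HFD fibroblasts.

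Many cell barcodes were listed in more than 1 sample. Each barcode was counted only in the sample where it had most UMIs, and values for all listed entries are called as deposited. Of the 486 LAMs, 381 were also listed in at least 1 other sample, and the other entries held a narrow share of the UMIs of the largest one. That share had medians of 0.11 to 0.116 for LAMs of HFD 1, 0.163 to 0.18 for HFD 2, 0.138 to 0.15 for HFD 3 and 0.213 to 0.238 for Control 3. The files held 779, 710 and 745 barcodes with 6992602, 5078891 and 5915392 UMIs in HFD 1, 2 and 3, and 929, 1200 and 1148 barcodes with 5572766, 4477100 and 4961741 UMIs in Control 1, 2 and 3. Doublets were not called, and their part in the results was not tested.

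LAMs were the largest macrophage group in HFD samples and a small one in control samples. HFD 1 held 197 LAMs among 453 kept cells, HFD 2 held 117 of 295 and HFD 3 held 132 of 380. Control 1 held 2 of 388, Control 2 held 9 of 260 and Control 3 held 29 of 338. The shares did not overlap between diets. They were 43.5%, 39.7% and 34.7% in HFD 1, 2 and 3 and 0.515%, 3.46% and 8.58% in Control 1, 2 and 3. The means were 39.3% ± 4.39 in HFD samples and 4.19% ± 4.08 in control samples (SD, n = 3 each), a difference of 35.1 percentage points (two-sided exact permutation test, p = 0.1, the smallest p that 3 samples against 3 allow).

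**Figure D1:**
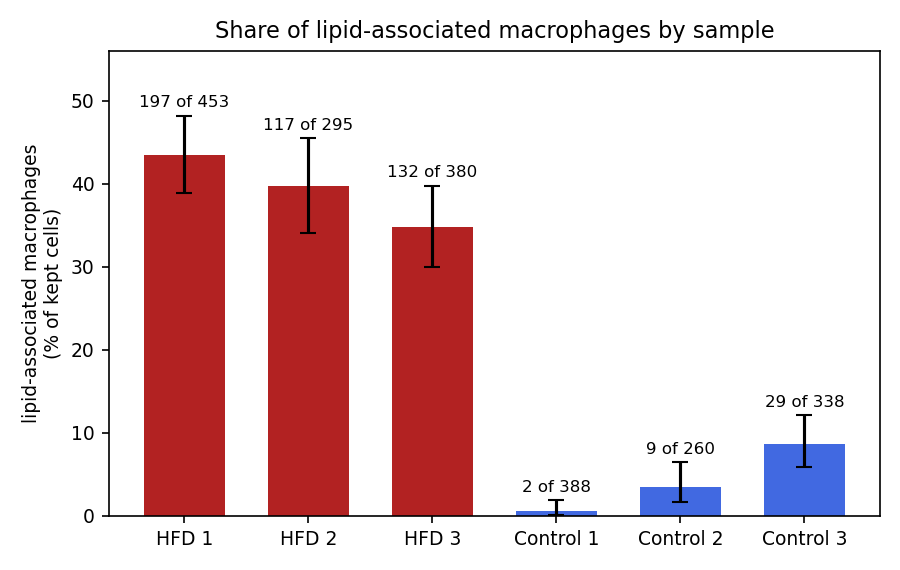
Lipid-associated macrophages as a percentage of kept cells in each sample, HFD samples in red and control samples in blue; the black lines are 95% exact binomial intervals, which cover counting error only, and the numbers give LAMs of kept cells. The 3 HFD samples lie between 34.7% and 43.5%, all above the highest control sample, Control 3, at 8.58%.

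The exact 95% binomial interval of the share ran from 30.0% to 39.8% in HFD 3, the lowest HFD sample, and from 5.82% to 12.1% in Control 3, the highest control sample. Among macrophages alone, the LAMs together with resident macrophages and all other cells with at least 20 UMIs of the complement genes C1qa, C1qb and C1qc, LAMs made up 60.4%, 57.4% and 52.0% in HFD 1, 2 and 3. The same share was 0.733%, 6.38% and 13.8% in Control 1, 2 and 3. The difference between the diet means of 56.6% ± 4.28 in HFD and 6.98% ± 6.56 in control was 49.6 points (exact permutation test, p = 0.1). As deposited, the control samples listed 103, 131 and 140 LAM entries, of which 101, 122 and 111 had their largest entry in another sample. The difference in share of kept cells was then 18.1 points, and 14.2 points among barcodes listed in exactly 1 sample, where 100 LAMs stood in HFD samples and 5 in control samples.

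LAMs held more UMIs than the macrophages nearest to them. Their median UMI count was 15356, 15358 and 16011.5 in HFD 1, 2 and 3 and 13109 in Control 3, against 7767, 8644 and 8028.5 in other C1q macrophages of the same HFD samples and 7085 in those of Control 3. LAMs therefore held 61.3%, 55.1% and 54.5% of all kept UMIs in HFD 1, 2 and 3. In the control samples they held 0.775%, 5.07% and 16.9%. Since the threshold counts raw UMIs, a deeper cell reached it more easily, and with a threshold of 8 UMIs per 10000 UMIs of the cell the difference in share was 30.6 points.

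The count of the 5 selection genes spread over a wide range. It went from 8 to 1095 UMIs in HFD LAMs and from 8 to 451 in control LAMs, with medians of 27 and 32. Just inside the threshold, at 8 to 11 UMIs, stood 79 HFD and 5 control cells. Just outside it, at 4 to 7 UMIs and under both other limits, stood 151 HFD and 32 control cells. A further 25 HFD and 10 control cells reached 8 UMIs but were left out for resident macrophage genes, and 16 HFD cells were left out for collagen genes.

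**Figure D2:**
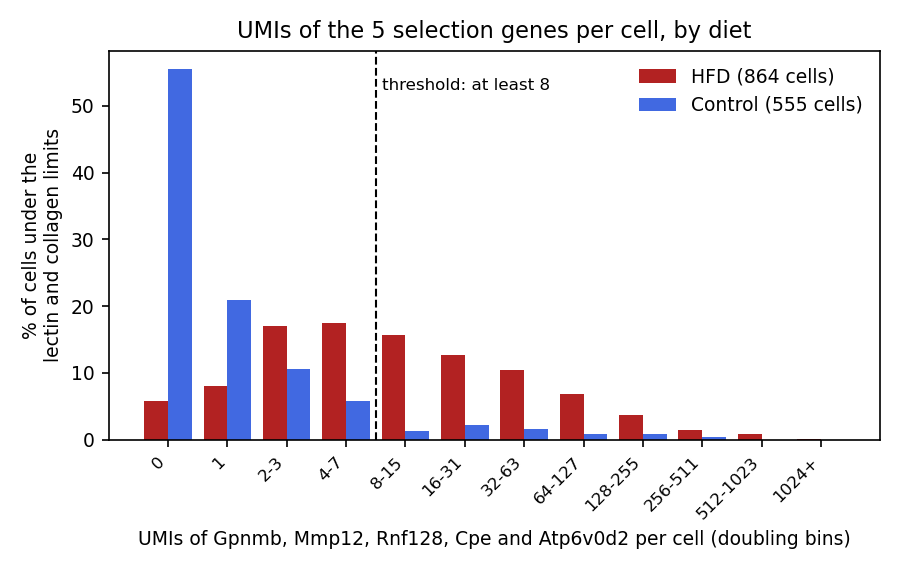
Percentage of cells under the resident-gene and collagen limits (vertical axis) in doubling bins of their UMIs of Gpnmb, Mmp12, Rnf128, Cpe and Atp6v0d2 (horizontal axis), for 864 HFD cells in red and 555 control cells in blue, with a dashed line at the threshold of 8. HFD cells spread over the threshold without a gap, while most control cells hold 0 or 1 of these UMIs.

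Among the 5 selection genes Gpnmb carried the most UMIs and Cpe separated the diets most. Gpnmb held 48.3% of the selection UMIs of HFD LAMs and 45.1% of those of control LAMs. It stood at 2052, 1422 and 1647 CPM in LAMs of HFD 1, 2 and 3 and at 732, 1057 and 2440 CPM in LAMs of Control 1, 2 and 3. The diets overlapped for Gpnmb. Mmp12 was the leading gene of fewer HFD LAMs, with most selection UMIs in 13.9% of HFD LAMs and 45.0% of control LAMs. Mmp12 stood at 1483, 509 and 733 CPM in LAMs of HFD 1, 2 and 3 and at 2430, 2599 and 1825 CPM in LAMs of Control 1, 2 and 3, with no overlap.

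Cpe stood at 223, 248 and 184 CPM in LAMs of HFD 1, 2 and 3. In LAMs of Control 2 and Control 3 it stood at 9.88 and 4.36 CPM. It had a UMI in 58.7% of HFD LAMs and 5.0% of control LAMs. Thinned to 3000 UMIs the shares were 34.0% of 441 HFD LAMs, 0 of 39 control LAMs and 8.81% of HFD C1q macrophages outside the LAMs. The 39 control cells, 28 of them from Control 3, allow a share of up to 9.03% (exact 95% binomial bound). This bound pools cells over samples and covers counting error only. Atp6v0d2 varied least among HFD LAMs, at 547, 530 and 484 CPM in HFD LAMs against 133, 356 and 552 CPM in LAMs of Control 1, 2 and 3. Rnf128 stood at 166, 117 and 147 CPM in HFD LAMs and at 0, 59.3 and 98.1 CPM in control LAMs. All 5 genes had a UMI in 34.8% of HFD LAMs and 5.0% of control LAMs. The 2 LAMs of Control 1 rest on 30039 UMIs in all, so their CPM values are loose.

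The promoters of Gpnmb and Mmp12, the genes with the most selection UMIs, and of Ctsd, the lysosomal protease cathepsin D the most abundant protease among genes higher than in other C1q macrophages, are shown with 2 motifs searched in them. CACGTG is the core of the E-box bound by MiT/TFE factors, the regulators of lysosomal genes, and TGACTCA, read as TGAGTCA on the other strand, is the site of AP-1 factors. Sequences are from RefSeq on GRCm38.p6, from 250 bases before the start site to 30 after it, 5′ to 3′ on the gene's own strand, with motif matches in capitals. Gpnmb lies at chr6:49036268-49036547 (+), the Mmp12 start with a match at chr9:7347124-7347403 (+), and Ctsd at chr7:142387798-142388077 (-).
Gpnmb: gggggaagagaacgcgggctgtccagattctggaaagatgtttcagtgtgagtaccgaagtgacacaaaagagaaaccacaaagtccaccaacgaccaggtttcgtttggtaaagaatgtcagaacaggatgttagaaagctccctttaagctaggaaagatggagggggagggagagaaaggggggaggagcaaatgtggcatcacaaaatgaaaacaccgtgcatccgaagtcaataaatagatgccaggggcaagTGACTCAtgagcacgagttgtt
Mmp12: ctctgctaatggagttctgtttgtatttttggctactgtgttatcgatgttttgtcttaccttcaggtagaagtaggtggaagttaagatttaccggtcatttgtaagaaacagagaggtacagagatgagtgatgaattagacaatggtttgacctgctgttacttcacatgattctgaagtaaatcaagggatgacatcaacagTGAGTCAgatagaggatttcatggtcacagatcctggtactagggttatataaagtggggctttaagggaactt
Ctsd: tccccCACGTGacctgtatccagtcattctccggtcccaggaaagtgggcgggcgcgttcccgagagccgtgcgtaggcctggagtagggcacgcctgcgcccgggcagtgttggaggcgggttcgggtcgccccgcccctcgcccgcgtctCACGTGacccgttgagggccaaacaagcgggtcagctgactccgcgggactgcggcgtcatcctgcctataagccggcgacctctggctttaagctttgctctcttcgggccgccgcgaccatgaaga
The Gpnmb window held TGACTCA starting 8 bases after the start site, the Mmp12 window held TGAGTCA starting 44 bases before it, and the Ctsd window held CACGTG starting 245 and 98 bases before it. A second Mmp12 start site in RefSeq held neither motif.

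The receptor gene Trem2, the lectin gene Lgals3 and the fatty acid transporter gene Cd36 were higher in LAMs than in all other kept cells. A gene was counted when its CPM plus 5 was at least 2-fold higher, or lower, in LAMs than in the other cells in each of the 4 samples with at least 20 LAMs, HFD 1 to 3 and Control 3. Of 7620 genes with at least 10 CPM, 55 (0.722%) were higher and 251 (3.29%) lower. Because the selection used counts of these same cells, the counts carry no test. Most of the genes with the lowest ratios are fibroblast genes, such as Dcn and Lum of the collagen matrix, and the collagen limit of the selection removes cells rich in them.

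Trem2 stood at 1675, 1538 and 1506 CPM in LAMs of HFD 1, 2 and 3 and at 1372 CPM in LAMs of Control 3. In the other kept cells of the same samples it stood at 504, 547 and 392 CPM in HFD and 242 CPM in Control 3. Every LAM value lay above every value of the other cells. Lgals3, which encodes the galectin-3 lectin, was the most abundant of the raised genes, at 10400, 9169 and 10350 CPM in HFD LAMs and 11780 CPM in Control 3 LAMs. In other kept cells Lgals3 stood at 2700, 2988 and 2289 CPM in HFD and 2196 CPM in Control 3. Spp1, the secreted osteopontin, differed widely among LAMs, with 828 CPM in HFD 1, 275 CPM in HFD 2, 242 CPM in HFD 3 and 159 CPM in Control 3.

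Cd36 stood at 2454, 2182 and 2255 CPM in HFD LAMs and 2235 CPM in Control 3 LAMs. In other kept cells of these samples it stood at 815, 1020 and 767 CPM in HFD and 927 CPM in Control 3. Lipa, the acid lipase that frees cholesterol and fatty acids in lysosomes, had a mean log2 ratio of 1.34 ± 0.29 (SD, n = 3 HFD samples) and 1.87 in Control 3. Il7r, a cytokine receptor chain best known from lymphocytes, stood at 74.9, 69.3 and 61.8 CPM in HFD LAMs and 61.1 CPM in Control 3 LAMs, with 16.9 to 18.1 CPM in the other cells of the HFD samples and 17.3 CPM in those of Control 3. The markers of T and NK cells, 9 genes, summed to 9.69 to 17.2 CPM in HFD LAMs and 17.4 CPM in Control 3 LAMs, against 264 to 455 CPM in the kept cells of the HFD samples outside the macrophage and fibroblast groups.

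The nearest cells were other C1q macrophages, with at least 20 UMIs of C1qa, C1qb and C1qc and under all limits of the selection. Of 7066 genes, 40 (0.566%) were at least 2-fold higher in LAMs in all 4 samples and 27 (0.382%) at least 2-fold lower. The higher genes include proteases of the lysosome, and the lower ones include chemokines that attract monocytes. Ctsk, the cysteine protease cathepsin K of osteoclasts, had the second largest mean ratio outside the selection genes in the HFD samples. It stood at 882, 422 and 872 CPM in HFD LAMs and 371 CPM in Control 3 LAMs. In other C1q macrophages Ctsk stood at 113, 56.6 and 94.0 CPM in HFD and 13.1 CPM in Control 3. Ctsk was also abundant in HFD fibroblasts, where 73.4% of thinned cells had a UMI against 42.9% of HFD LAMs.

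Zranb3, which encodes a DNA annealing helicase, had the largest mean ratio over the HFD samples outside the selection genes, a log2 of 2.99 ± 0.43 (SD, n = 3), and 3.28 in Control 3, where Ctsk had 4.37. It stood at 117, 74.9 and 132 CPM in HFD LAMs, against 11.7, 7.85 and 7.39 CPM in other C1q macrophages of HFD 1, 2 and 3. In Control 3 it stood at 43.6 CPM in LAMs and had no UMI in other C1q macrophages. Mfge8, a secreted protein that bridges dying cells to phagocytes, stood at 559, 236 and 372 CPM in HFD LAMs and 238 CPM in Control 3 LAMs. Other C1q macrophages held 64.2, 51.8 and 39.1 CPM of Mfge8 in HFD and 35.0 CPM in Control 3. Itgax, which encodes CD11c, stood at 166, 107 and 147 CPM in HFD LAMs and 170 CPM in Control 3 LAMs, above 31.4 to 42.2 CPM in other C1q macrophages of the HFD samples and 39.4 CPM in those of Control 3.

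Cathepsin L (Ctsl) had a mean log2 ratio of 2.09 ± 0.30 in HFD samples and 2.80 in Control 3. Cathepsin D (Ctsd), whose promoter is shown above, had 1.42 ± 0.16 and 1.92. Acp5, the tartrate-resistant acid phosphatase of osteoclasts, had 1.53 ± 0.28 and 1.28. The tetraspanin Cd9 had 1.38 ± 0.22 and 2.35, and Trem2 had 1.26 ± 0.18 and 2.23. The fatty acid binding protein gene Fabp5 had 1.43 ± 0.46 and 3.01. All these ratios were positive in each of the 4 samples. The lipoprotein lipase gene Lpl and Cd36 stayed under 2-fold in HFD 2 (log2 ratios 0.85 and 0.87) and were not counted.

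Several genes of monocyte-attracting chemokines were lower in LAMs than in other C1q macrophages. Ccl7 stood at 172, 158 and 293 CPM in HFD LAMs and 377 CPM in Control 3 LAMs. In other C1q macrophages it stood at 718, 1056 and 1493 CPM in HFD and 2861 CPM in Control 3. Ccl2, the main ligand of the monocyte receptor Ccr2, had a mean log2 ratio of -1.68 ± 0.67 in HFD samples and -1.96 in Control 3. Ccr2 itself had -1.64 ± 0.12 and -1.55. Ccl8 had -2.22 ± 0.49 and -2.23, and Cxcl10, an interferon-induced chemokine, had -2.51 ± 0.51 and -1.93. Of 16 chemokine genes measured, 5 were at least 2-fold lower in all 4 samples and 0 higher, with a median log2 ratio of -0.84 against 0.05 over all 7066 genes.

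**Figure D3:**
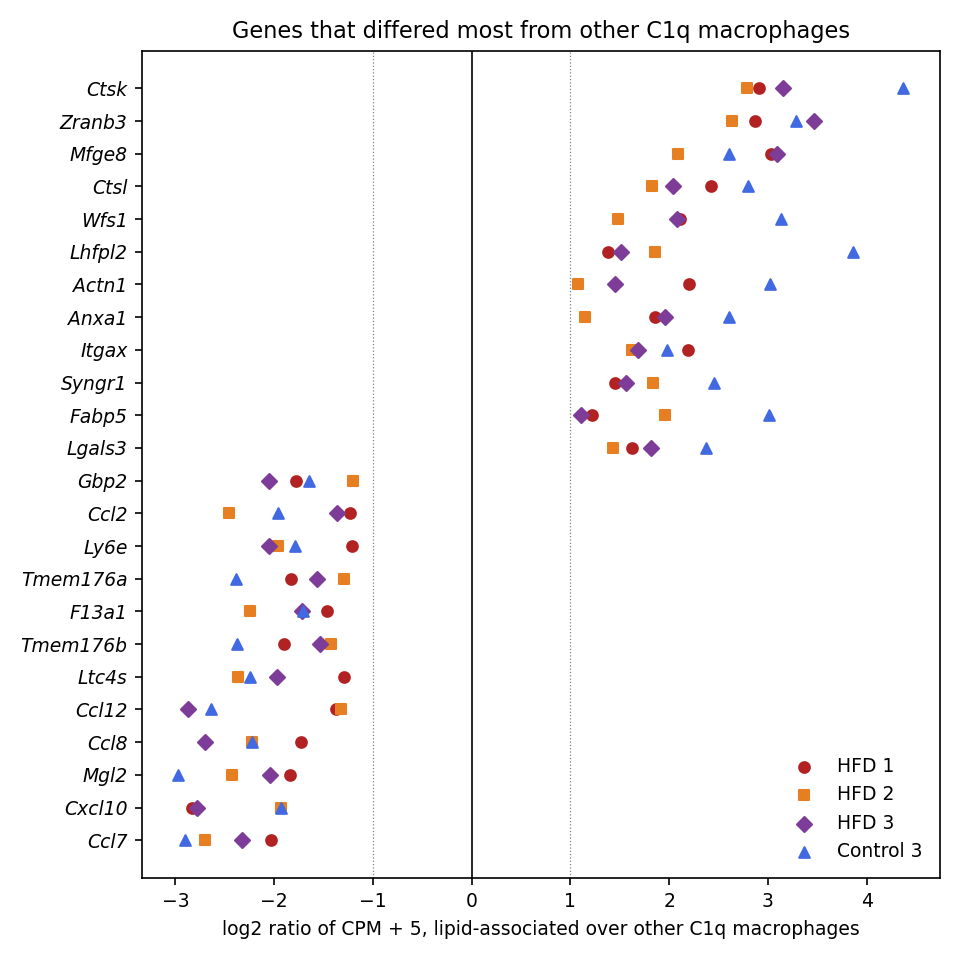
Log2 ratio of CPM plus 5 in lipid-associated macrophages over other C1q macrophages of the same sample (horizontal axis) for the 12 genes with the largest and the 12 with the lowest mean ratio among those counted, with 1 point per sample and dotted lines at 2-fold. The 4 samples lie on the same side for each of the 24 genes; Ctsk reaches from 2.79 in HFD 2 to 4.37 in Control 3.

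Gene lists, chosen with earlier results of these data known, describe the same contrast by function. Of 24 lipid-associated macrophage genes, 13 were counted as higher than in all other kept cells and 8 as higher than in other C1q macrophages, with the selection gene Gpnmb counted in both, and 0 as lower in either. Apoe, which encodes a lipoprotein of macrophages, was lower in LAMs of each HFD sample, at 13860, 14480 and 12190 CPM in LAMs and 20050, 18080 and 17380 CPM in other C1q macrophages. Of 34 lysosomal hydrolases and activators, 4 were higher than in other C1q macrophages (Ctsk, Ctsl, Ctsd and Acp5) and 1 was lower (Ctsc, cathepsin C). Of 17 V-ATPase genes measured, all 17 had a mean ratio above 0, as had 3949 of all 7066 genes. The median log2 ratio of the 17 was 0.54, against 0.05 over all genes. Only Atp6v0d2, a selection gene, passed 2-fold. Atp6v1c1, a subunit of the pump's cytosolic part, had 0.99 ± 0.19 in HFD samples and 1.82 in Control 3.

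MHC class II genes, which present antigen to T cells, had a median log2 ratio of -1.0 over 9 genes against other C1q macrophages, and 0 of the 9 passed 2-fold in all 4 samples. H2-Ab1 stood at 4385, 5050 and 5540 CPM in HFD LAMs and 5528 CPM in Control 3 LAMs. In other C1q macrophages it stood at 9931, 8185 and 11230 CPM in HFD and 13160 CPM in Control 3. The complement genes C1qb and C1qc, part of the definition of the comparison cells, differed by log2 ratios of -0.11 ± 0.02 and -0.06 ± 0.09 in HFD samples. Since 0.566% of all 7066 genes were higher and 0.382% lower, a count of 0 in a short list cannot be read as a result. Of 12 genes listed as MiT/TFE and lipid-sensing transcription factors, 0 passed 2-fold, with a median log2 ratio of -0.13 against 0.05 over all genes. Among them Mitf, a factor of the MiT/TFE family, stood at 36.6, 34.4 and 40.0 CPM in HFD LAMs against 25.7, 22.0 and 33.8 CPM in other C1q macrophages, and at 21.8 against 10.9 CPM in Control 3.

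Markers of other cell types were detected in LAMs, and their part in the results was not tested. Fibroblast markers summed to 186 to 283 CPM in HFD LAMs and 69.8 CPM in Control 3 LAMs, against 207 to 297 CPM in other C1q macrophages of the HFD samples and 101 CPM in those of Control 3. B and plasma cell markers summed to 114 to 493 CPM in HFD LAMs and 15.3 CPM in Control 3 LAMs, against 54.8 to 4060 CPM and 32.8 CPM in other C1q macrophages. Classical monocyte markers summed to 115 to 128 CPM in HFD LAMs and 198 CPM in Control 3 LAMs, and to 297 to 324 CPM and 525 CPM in other C1q macrophages. The 10 markers of type 2 dendritic cells summed to 357 to 470 CPM in HFD LAMs and 578 CPM in Control 3 LAMs, against 553 to 785 CPM and 921 CPM in other C1q macrophages, with Itgae at 0 in LAMs. The 6 markers of type 1 dendritic cells summed to 195 to 223 CPM in HFD LAMs and 183 CPM in Control 3 LAMs, against 250 to 319 CPM and 256 CPM. The 6 neutrophil markers had a higher sum in LAMs, at 43.2 to 59.2 CPM in HFD and 37.1 CPM in Control 3, against 29.2 to 42.2 CPM and 6.56 CPM in other C1q macrophages, with Ly6g at 0 in LAMs. Only 3 of these markers reached 10 CPM in that comparison, and 0 were counted as higher.

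Cell cycle genes were detected in LAMs of the 4 samples examined, HFD 1 to 3 and Control 3. After thinning to 3000 UMIs, at least 3 UMIs of 20 cell cycle genes were found in 21.5%, 20.7% and 14.6% of LAMs in HFD 1, 2 and 3 and in 10.7% of the 28 LAMs of Control 3. In other C1q macrophages the shares were 3.96%, 21.9% and 3.13% in HFD 1, 2 and 3 and 5.77% in Control 3. In resident macrophages they were 15.4%, 9.52% and 9.09% in HFD 1, 2 and 3 and 1.83% in Control 3. LAMs stood above other C1q macrophages in HFD 1 and HFD 3 and not in HFD 2, and Control 3 rests on 3 of 28 LAMs against 3 of 52 other C1q macrophages. Unthinned shares were 72.0% to 74.6% of HFD LAMs and 62.1% of Control 3 LAMs. In HFD fibroblasts the thinned shares were 0.0% to 1.92%. Mki67, a marker of dividing cells, had a UMI in 2.27% of thinned HFD LAMs and 2.68% of thinned other C1q macrophages of HFD samples. Whether cells with at least 3 UMIs of the list were dividing was not tested.

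LAMs varied among themselves along the strength of the selection genes. HFD LAMs were divided by their selection UMIs per 10000 UMIs of the cell into 99 cells under 10, 240 cells from 10 to 40 and 107 cells over 40, whose median depths were 17780, 13910 and 18720 UMIs. The 40 control LAMs numbered 3, 21 and 16 in the same ranges. These ranges rest on the genes that chose the cells, so the values are descriptions. Trem2 averaged 967, 1574 and 2090 CPM over the 3 HFD samples in the 3 ranges. Ctsk averaged 119, 537 and 1615 CPM, and Mfge8 60.3, 196 and 985 CPM. The lysosomal and bridging genes were thus highest where the selection genes were strongest.

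The monocyte receptor gene Ccr2 ran the other way across the same ranges. It averaged 116, 34.8 and 6.76 CPM, and F13a1, the coagulation factor XIII subunit of monocytes and macrophages, 141, 43.6 and 19.9 CPM. Ccl2 averaged 544, 308 and 206 CPM, with ranges over samples that overlap. C1qa, a complement gene of all these macrophages, averaged 3111, 3021 and 2317 CPM. The cells just outside the threshold, at 4 to 7 selection UMIs, had 143 CPM of Ccr2 and 748 CPM of Trem2 in the 119 HFD cells that also held at least 20 C1q UMIs. The 79 HFD cells just inside, at 8 to 11, had 139 and 953 CPM.

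**Figure D4:**
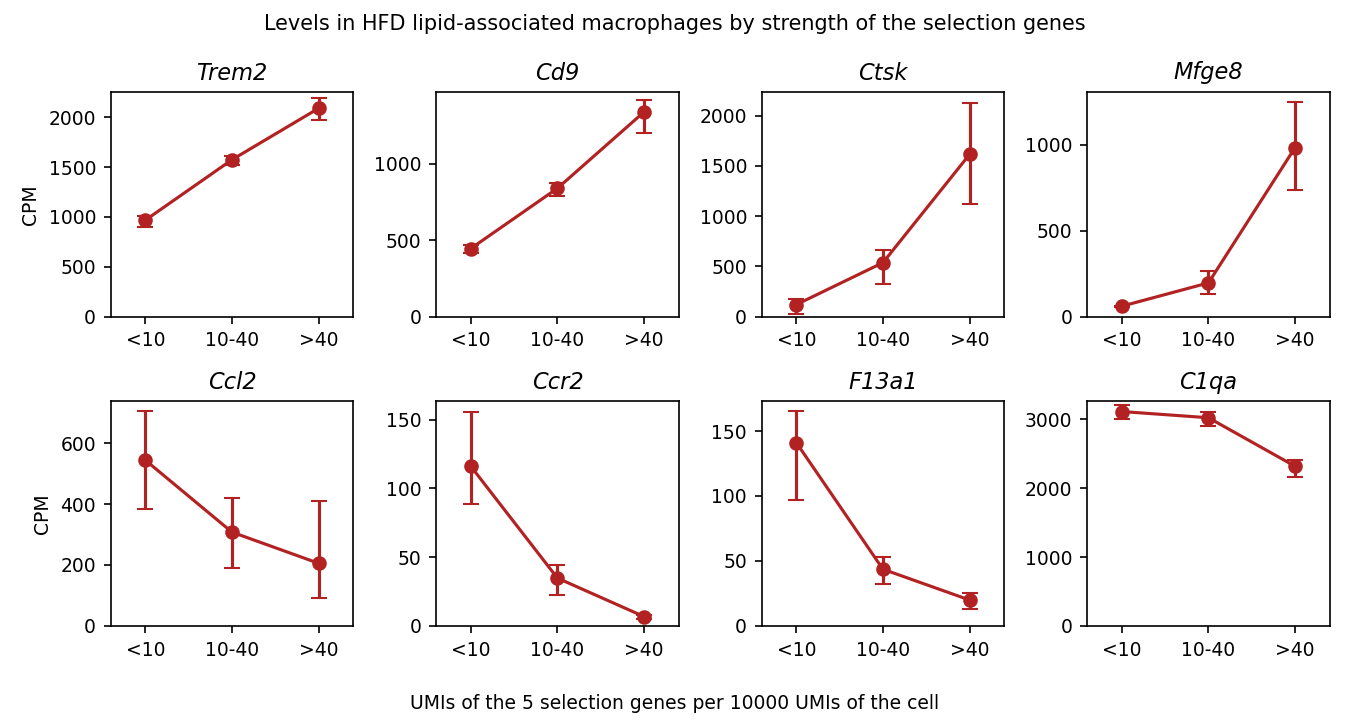
Mean CPM of 8 genes in HFD lipid-associated macrophages (vertical axes) in 3 ranges of the selection genes' UMIs per 10000 UMIs of the cell (horizontal axes); points are means over HFD 1, 2 and 3 and bars run from the lowest to the highest sample. Trem2, Cd9, Ctsk and Mfge8 increase across the ranges, Ccr2 goes from 116 to 6.76 CPM, and C1qa stays between 2317 and 3111 CPM.

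Diet was not part of the selection and was tested with edgeR's quasi-likelihood test. Over sums of all kept cells, where more cells of a type and more RNA per cell cannot be told apart, 1593 of 10450 genes (15.2%) were higher in HFD and 1796 (17.2%) lower at an adjusted p below 0.05. Of the 24 lipid-associated macrophage genes, 19 rose and 0 fell. Trem2 stood at 1222, 1093 and 1000 CPM in HFD 1, 2 and 3 and at 67.4, 176 and 433 CPM in Control 1, 2 and 3. Its log2 fold change was 2.17 ± 0.51 (SE) with an adjusted p of 0.0109. Gpnmb stood at 1374, 917 and 1001 CPM in HFD and 16, 77.6 and 612 CPM in control samples, which did not overlap, yet its log2 fold change of 2.12 ± 0.94 missed the threshold (edgeR adjusted p = 0.115). Gpnmb passed it in 4 of 12 other settings, among them as deposited (edgeR adjusted p = 0.00734) and without Control 3 (log2 fold change 4.51, edgeR adjusted p = 0.00067). Cpe had the most even difference, with 149, 159 and 114 CPM in HFD and 2.58, 1.00 and 2.58 CPM in control samples (log2 fold change 5.83 ± 0.23, edgeR adjusted p = 1.25e-05). Of 18 V-ATPase genes 11 rose, among them Atp6v1a, a catalytic subunit (log2 fold change 0.77 ± 0.14, edgeR adjusted p = 0.00335).

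The kept cells outside the LAMs differed in makeup between diets. They included 75, 52 and 68 fibroblasts in HFD 1, 2 and 3 and 8, 2 and 9 in Control 1, 2 and 3, and 26, 21 and 22 resident macrophages in HFD and 210, 77 and 125 in control samples. All 8 fibroblast markers rose in these sums, with a median log2 fold change of 3.8, and the part of this makeup in the values was not tested. Over kept cells that were not LAMs, 1140 of 9537 genes (12%) were higher in HFD and 1183 (12.4%) lower. Of the 24 lipid-associated macrophage genes 13 rose and 1 fell, the adaptor gene Tyrobp, whose call was lost in 6 other settings, among them without Control 2, HFD 1 or HFD 3 (edgeR adjusted p = 0.0763, 0.0698 and 0.0941). Trem2 stood at 504, 547 and 392 CPM in these cells of HFD 1, 2 and 3 and at 64.8, 113 and 242 CPM in those of Control 1, 2 and 3 (log2 fold change 1.66 ± 0.37, edgeR adjusted p = 0.00899). Cd9 stood at 444, 437 and 369 CPM in HFD and at 160, 166 and 153 CPM in control (log2 fold change 1.24 ± 0.10, edgeR adjusted p = 5.41e-05), and had a UMI in 79.7% of thinned HFD fibroblasts. Of 18 V-ATPase genes 1 rose in these cells. The 5 selection genes are limited in these cells by the selection itself. How far the lists differ between the sums was not tested.

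Within LAMs, few lipid and lysosome genes passed a test of diet, while Areg, Lyz1, Ear2, Fn1 and Rgcc fell in HFD in every setting tried. Only Control 3 held 20 LAMs among the control samples, so the comparison used HFD 1 to 3 against Control 2 and Control 3, whose 9 and 29 LAMs summed to 101208 and 458594 UMIs, a choice made after seeing these numbers. In Control 2, 1 UMI equals 9.88 CPM. LAMs of HFD and control samples also spread differently over the ranges of selection-gene strength. The part of this in the diet values was not tested. Of 8781 genes, 52 (0.592%) were higher in HFD LAMs and 100 (1.14%) lower at an adjusted p below 0.05. Of the 24 lipid-associated macrophage genes, 0 rose and 1 fell, Fabp5, which lost its call in 6 of 10 other settings, among them without Control 3 or any 1 of the HFD samples. Trem2 stood at 1675, 1538 and 1506 CPM in HFD LAMs and 1364 and 1372 CPM in control LAMs (log2 fold change 0.16 ± 0.13, edgeR adjusted p = 0.683).

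Leaving out each sample in turn kept the call of 7 of the 52 higher genes, among them the selection gene Cpe, and 10 of the 100 lower genes in all 5 fits. Counts of Cpe helped to choose the cells, so its call is a description and carries no test. As deposited, where 111 of the 140 LAM entries of Control 3 and 122 of the 131 of Control 2 were not their barcode's largest, 9 of the 52 and 27 of the 100 were called. The genes named next in the text without a remark on lost calls kept theirs in every fit without 1 sample. Among the lower genes, Areg, the growth factor amphiregulin, stood at 6.58, 16.2 and 10.9 CPM in HFD LAMs and 178 and 148 CPM in control LAMs. The log2 fold change was -3.93 ± 0.31 (edgeR adjusted p = 1.02e-06). Areg fell as well in kept cells outside the LAMs, with a log2 fold change of -3.50 ± 0.32 (edgeR adjusted p = 8.45e-05).

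Lyz1, a lysozyme gene whose reads can be shared with its copy Lyz2, stood at 124, 138 and 117 CPM in HFD LAMs and 791 and 779 CPM in control LAMs (log2 fold change -2.68 ± 0.14, edgeR adjusted p = 4.25e-09). Ear2, of a family of near-identical ribonucleases, stood at 58.3, 114 and 51.3 CPM in HFD LAMs and 573 and 377 CPM in control LAMs (log2 fold change -2.64 ± 0.28, edgeR adjusted p = 4.49e-05). Both fell also in cells outside the LAMs. Fn1, the matrix protein fibronectin, stood at 142, 113 and 190 CPM in HFD LAMs and 623 and 360 CPM in control LAMs (log2 fold change -1.63 ± 0.23, edgeR adjusted p = 0.000943). Rgcc, a regulator of the cell cycle, stood at 42.3, 34.9 and 57.3 CPM in HFD LAMs and 346 and 129 CPM in control LAMs (log2 fold change -2.06 ± 0.31, edgeR adjusted p = 0.00182). In cells outside the LAMs Rgcc had a log2 fold change of -0.22 ± 0.20 (edgeR adjusted p = 0.486), and whether the LAMs and other cells differed in this was not tested.

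Calls among inflammatory genes depended on the samples in the fit. Of 17 measured inflammatory cytokines and NF-kB targets, 6 fell and 0 rose in HFD LAMs, against 1.14% lower and 0.592% higher over all 8781 genes. The median log2 fold change of this list was -0.69, against 0.05 over all genes. Without HFD 1, Il1b, Tnf, Nfkbia and Tnfaip3 lost their calls. Leaving out Control 3 keeps Control 2 as the only control, with 9 LAMs. The log2 fold changes were then -2.86 for Il6, -0.85 for Tnf, -0.82 for Il1b, -0.64 for Il1rn, -0.57 for Tnfaip3 and -0.44 for Nfkbia. None of the 6 (Il1b, Tnf, Il6, Nfkbia, Tnfaip3 and Il1rn) kept its call without Control 3. The neutrophil chemokine gene Cxcl1 stood at 746, 1019 and 878 CPM in HFD LAMs and 1719 and 1585 CPM in control LAMs (log2 fold change -0.94 ± 0.15, edgeR adjusted p = 0.00261), and -0.41 as deposited (edgeR adjusted p = 0.12). Il6 stood at 6.58, 4.55 and 4.04 CPM in HFD LAMs and 39.5 and 56.7 CPM in control LAMs (edgeR adjusted p = 0.000395, and 0.224 without Control 3). Tnf stood at 251, 311 and 421 CPM in HFD LAMs and 613 and 637 CPM in control LAMs (edgeR adjusted p = 0.0127, and 0.258 without Control 3), and lost its call as well without Control 2 or HFD 1 and as deposited (log2 fold change -0.34 against -0.98, edgeR adjusted p = 0.448). The groups did not overlap for any of the 3 genes, which 3 values against 2 can also show without an effect of diet. How many of all 8781 genes did the same was not counted.

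The interleukin 4 response genes, which mark alternatively activated macrophages, showed 5 of 12 lower and 0 higher, against 1.14% lower and 0.592% higher over all 8781 genes. The median log2 fold change of the list was -0.72, against 0.05 over all genes. Of the 5, Ear2 alone kept its call in every fit without 1 sample. The fit without Control 3 keeps Control 2 as the only control, with 9 LAMs. Retnla, a secreted resistin-like protein of this response, stood at 465, 253 and 1783 CPM in HFD LAMs and 4723 and 3371 CPM in control LAMs (log2 fold change -2.29 ± 0.48, edgeR adjusted p = 0.0175). The call was lost in 5 of 10 other settings, among them without Control 2, Control 3 or HFD 1 and as deposited (log2 fold change -1.55, edgeR adjusted p = 0.155). Ccl24, an eosinophil chemokine gene, stood at 26, 12.7 and 34.3 CPM in HFD LAMs and 148 and 166 CPM in control LAMs (edgeR adjusted p = 0.000107, and 0.118 without Control 3).

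Among the genes higher in HFD LAMs, Ms4a7, a membrane protein of macrophages, stood at 643, 830 and 551 CPM in HFD LAMs and 168 and 268 CPM in control LAMs (log2 fold change 1.45 ± 0.22, edgeR adjusted p = 0.00164). As deposited its log2 fold change was 0.20 (edgeR adjusted p = 0.584). The actin-severing protein gene Gsn stood at 587, 621 and 643 CPM in HFD LAMs and 257 and 331 CPM in control LAMs (log2 fold change 0.95 ± 0.17, edgeR adjusted p = 0.00472). Gsn, Dcn and other genes of the fibroblasts were far higher in other HFD cells, Gsn at 7722, 6716 and 6230 CPM in the kept cells of HFD 1, 2 and 3 outside the LAMs.

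Transcripts of other cell types moved with diet in the same cells. Dcn, a fibroblast matrix gene, stood at 123, 178 and 190 CPM in HFD LAMs and 59.3 and 37.1 CPM in control LAMs (edgeR adjusted p = 0.00423, and 0.293 without Control 3). Igkc, the antibody light chain gene of B and plasma cells, stood at 3338, 495 and 3720 CPM in HFD LAMs and 316 and 0 CPM in control LAMs, with HFD 2 the nearest HFD sample to Control 2. The part of such transcripts in the other diet values of LAMs was not tested.

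**Figure D5:**
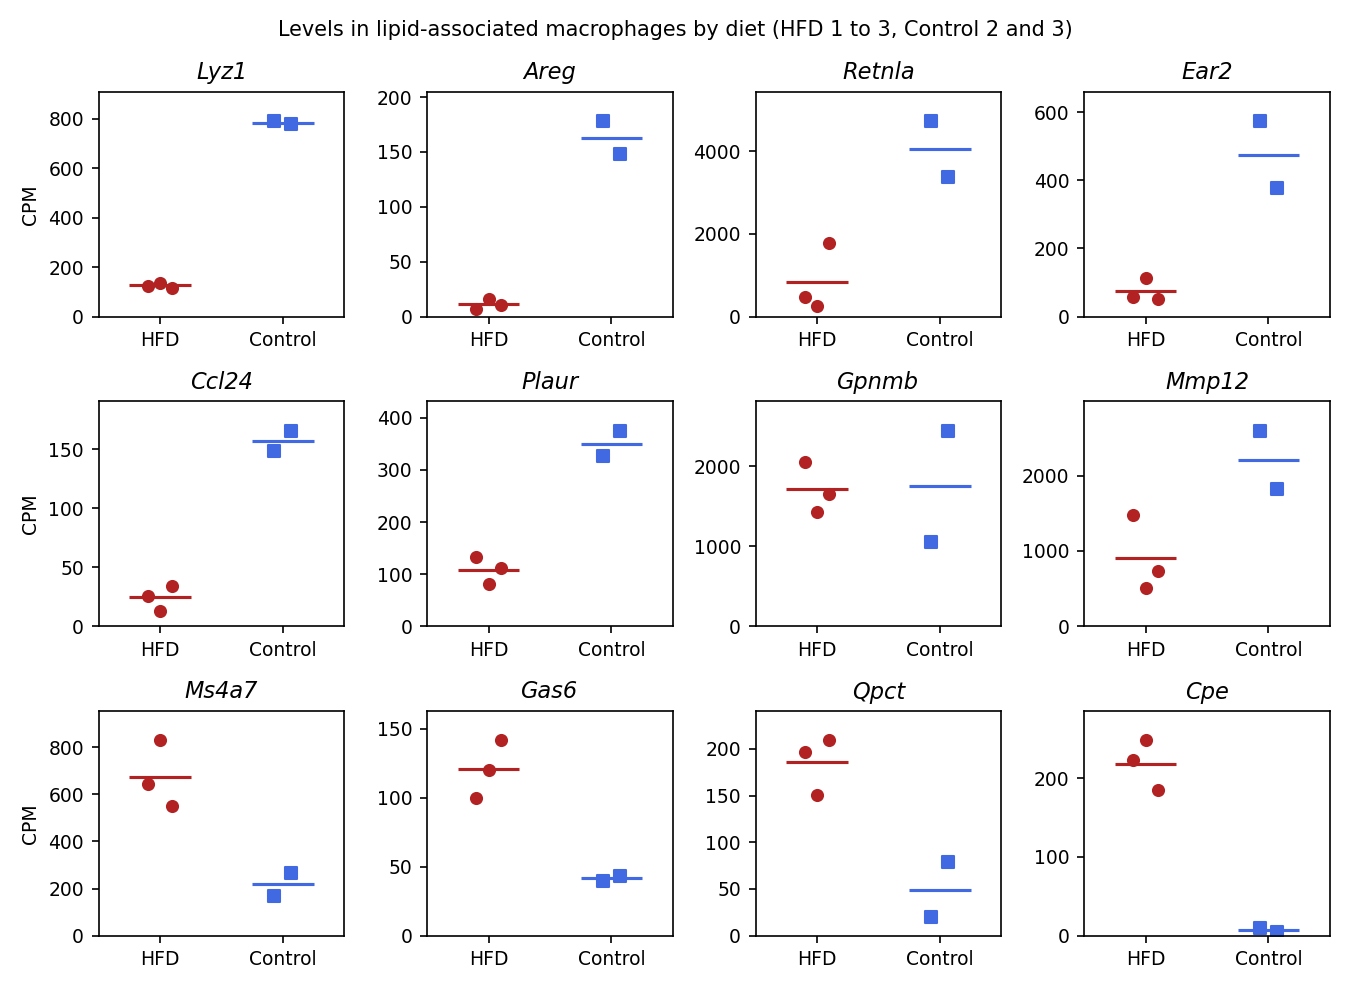
CPM (vertical axes) of 12 genes in lipid-associated macrophages of HFD 1, 2 and 3 (red points) and of Control 2 and Control 3 (blue squares), with a line at each diet's mean. Lyz1, Areg, Retnla, Ear2, Ccl24 and Plaur lie lower in all 3 HFD samples than in either control sample. Gpnmb overlaps, and Ms4a7, Gas6, Qpct and Cpe lie higher in all 3 HFD samples. Plaur lost its call in 2 of 10 other settings and Gas6 in 3 of 10, among them fits without 1 sample.

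The 2 motifs were counted in the promoters of the genes that set LAMs apart from other C1q macrophages. Of the 40 higher genes 33 matched RefSeq by symbol, with 42 promoter windows of 300 bases. TGACTCA was in 6 of these windows (14.3%), those of Gpnmb, Mmp12, Itgax, Dhrs9, C77080 and Dnmt3aos. It was in 5.2% of all 32851 mouse promoter windows, and the difference was not tested. Gpnmb and Mmp12 are selection genes, so their place among the higher genes follows from the selection. CACGTG was in 4 windows (9.52%), those of Ctsd, Ctsl, Igf2r and Cdk20, and in 7.15% of all windows. Of the 27 lower genes 22 matched, with 31 windows, of which 2 held TGACTCA and 1 held CACGTG. Both motifs were searched on both strands. A match is a description of the letters and does not show that a factor binds there.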

How the data were processed

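Single-cell RNA was measured in sorted CD45 and CD11b positive cells of visceral fat from 3 HFD and 3 control samples. For each sample the authors deposited UMI counts of 33456 genes as whole numbers, with no normalization. Per the submitters' processing notes Cell Ranger, Seurat 2.4 and the build mm9 were used, in roles not given in the sources used here.

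Of 5511 listed entries from 2195 barcodes, cells with at least 200 genes and at most 10% mitochondrial UMIs were kept, each barcode in the sample where it had most UMIs. The members, gene lists and naming rules were chosen with earlier results of these data known. The genes to name were, at 50 CPM or more, the 25 largest and 15 lowest mean ratios against all other kept cells, the 12 largest and 12 lowest against other C1q macrophages, up to 4 genes per list by size of ratio, and the selection genes. Not all of these are described, and the genes named for diet within members, like any other outside this rule, were chosen after their values were seen.

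Counts were summed per sample and cell group and scaled to CPM (per 1000000 UMIs of those cells). Ratios used a pseudocount of 5 CPM and a mean of at least 10 CPM in either group, chosen after seeing the data. Diet was tested as HFD minus control with edgeR 4.0.16 (TMM, filterByExpr, quasi-likelihood, Benjamini-Hochberg over all genes tested) under R 4.3.3. Shares were compared with exact permutation tests in scipy 1.17.1. Alternatives included DESeq2 1.42.0. The fits were tested on simulated data. Same-numbered samples did not deviate together, so replicate numbers were not used as pairs.

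The thinning drew UMIs of each cell at random, and 5 of 446 HFD members and 1 of 40 control members were too shallow for it. Intervals cover counting error only. Lyz1, Ear2, the Cd209 genes and other near-identical copies are uncertain, since the way reads were divided between copies is not stated. Not every gene that passed the tests is reported here.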

Additional observations from a re-analysis of the deposited data

Results flagged for a closer look

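Serpinb6b and Tuba1a had log2 ratios of LAMs to other C1q macrophages above 0 in all 3 HFD samples and below 0 in Control 3, the 1 control sample that could be compared, and the difference was not tested. For Serpinb6b the Control 3 ratio was close to 0, so only Tuba1a was clearly lower in LAMs there. Serpinb6b, a serine protease inhibitor, had log2 ratios of 1.87, 1.17 and 1.69 in HFD 1, 2 and 3 and -0.0026 in Control 3, a gap of 1.58 between the HFD mean and Control 3. In Control 3 it stood at 6.54 CPM in LAMs and 6.56 CPM in other C1q macrophages, near the level of few UMIs. Tuba1a, a tubulin gene, had log2 ratios of 0.83, 0.57 and 0.21 in HFD 1, 2 and 3 and -1.29 in Control 3, a gap of 1.83.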

How the results depend on the processing

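The shares of LAMs were higher in HFD under every alternative run. Against all other kept cells, 84 genes were higher and 433 lower at a pseudocount of 1 CPM, 33 were higher among barcodes listed in exactly 1 sample and 88 as deposited. Against other C1q macrophages, 47 were lower at a pseudocount of 1 CPM and 60 as deposited, and 14 were higher among barcodes listed in exactly 1 sample. In those forms fewer cells, or entries listed repeatedly, enter the sums. Leaving out 1 sample gave 63 to 82 higher and 265 to 516 lower genes against all other kept cells, the highest without Control 3. Against other C1q macrophages it gave 51 to 71 and 33 to 52, the highest without HFD 2, and without HFD 1 42 were lower. A gene had to pass 2-fold in every sample used, so leaving out 1 sample eases the condition. The larger counts therefore cannot show how firmly the genes were counted.

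For diet over all kept cells, barcodes listed in exactly 1 sample gave 965 higher and 975 lower genes, and leaving out 1 sample gave 1044 to 1639 and 1189 to 1694, the fewest without HFD 1. Outside the LAMs DESeq2 gave 730 lower genes, and leaving out 1 sample gave 873 to 1157 higher and 747 to 1035 lower. Within LAMs no filter on low counts gave 151 and 168. Leaving out 1 sample gave 14 to 64 higher and 33 to 78 lower genes, with 14 and 33 without HFD 1, 27 and 60 without Control 2, 19 and 60 without HFD 3 and 61 lower without Control 3. Without a control sample, the remaining one is assumed to vary like the HFD samples.

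With the replicate number as a block, 1114 and 1302 genes were called over all kept cells, 921 and 860 outside the LAMs, and 46 and 57 within LAMs. Deviations of same-numbered samples had correlations of -0.204, -0.0786 and -0.17 over all kept cells, so the numbers give no pairs. Log2 changes of named genes that turned round within LAMs were Tnfaip3 (0.011 as deposited, against -0.75), Gpnmb (0.74 without Control 3, with -0.58 to 0.74 over samples left out, against -0.14), Atp6v0d2 (-0.42 as deposited and -0.15 to 0.60 over samples left out, against 0.06) and Rnf128 (-0.15 as deposited, against 0.64). Outside the LAMs Fabp5 had 0.59 among barcodes listed in exactly 1 sample and -0.36 to 0.12 over samples left out, against -0.13, and Cd36 -0.22 among barcodes listed in exactly 1 sample, against 0.26. Tyrobp over all kept cells had -0.016 as deposited, against 0.14. The cause of these changes was not tested. The planned diet test within LAMs of at least 20 cells per sample was not run, since 1 control sample held that many, and barcodes listed in exactly 1 sample left too few control LAMs for it. The 9 LAMs of Control 2 limit low genes most.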

Other observations

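Tissue factor, F3, the initiator of blood clotting, had diet changes of opposite sign inside and outside LAMs. It stood at 8.58, 2.02 and 6.86 CPM in HFD LAMs and 39.5 and 65.4 CPM in LAMs of Control 2 and 3 (log2 fold change -3.29 ± 0.47, edgeR adjusted p = 0.00126, and 0.418 without Control 3). In kept cells outside the LAMs it stood at 84.2, 80.7 and 82.7 CPM in HFD 1, 2 and 3 and 29.4, 33.2 and 17.3 CPM in Control 1, 2 and 3 (log2 fold change 1.48 ± 0.21, edgeR adjusted p = 0.000762). All 8 fibroblast markers rose in the same cells outside the LAMs, and their part in this value was not tested. The difference between the 2 changes was not tested.

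The glutaminyl cyclase gene Qpct rose in HFD LAMs. It stood at 196, 151 and 209 CPM in HFD LAMs and 19.8 and 78.5 CPM in control LAMs (log2 fold change 1.44 ± 0.29, edgeR adjusted p = 0.0142, lost in 4 of 10 other settings, among them without Control 2, HFD 1 or HFD 3). As deposited its log2 fold change was 0.09 (edgeR adjusted p = 0.851). Outside the LAMs it was -0.08 ± 0.13 (edgeR adjusted p = 0.702), and the difference was not tested. Cadm1, a cell adhesion gene, stood at 174, 170 and 160 CPM in HFD LAMs and 39.5 and 76.3 CPM in control LAMs (log2 fold change 1.24 ± 0.23, edgeR adjusted p = 0.00843, and 0.438 as deposited, with a log2 fold change of 0.21), and lost its call without HFD 1.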
